A study of Mus musculus with 17 samples.

Results

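Cdh5, Pkp4, Ptk2, Epn2, Angptl7, Tmem63a, Paqr9 and Slc16a9 are 8 of the 40548 genes counted in sorted mouse macrophages of liver and fat. They encode adhesion, endocytic, secreted and membrane proteins, and they were chosen by name because they were lower in Cx3cr1-positive liver macrophages than in Kupffer cells of the same series. That difference is therefore given here as a description with no test. Each symbol had 1 entry in the count table, and 8 of the 8 genes passed the filter on low counts, which kept 15285 genes.

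The 17 libraries came from C57BL/6 mice of the genotype Cx3Cr1-GFP/WT, so every animal, controls included, carried a green fluorescent reporter at one allele of the chemokine receptor gene Cx3cr1. The mice ate a high fat, high sucrose diet from Research Diets (D12492, here HFD) or standard chow (STD) for 16 weeks. Their age was not given in the sources used here. ATM HFD (n = 5) stands for adipose tissue macrophages after HFD, gated by F4/80 with CD64. Cx3cr1pos HFD (n = 4) are liver macrophages sorted as reporter-positive after HFD. HFD KC (n = 5) and STD KC (n = 3) are liver cells with high F4/80 and surface TIM4, the gate for Kupffer cells (KC), after HFD or after STD. Of the HFD KC libraries, hf1, hf2 and hf3 carry the sort label CD68, and hfd1 and hfd2 carry frac_neg, the label that the STD KC libraries carry too. No label says that libraries of a group came from separate animals, so the p-values measure the spread between these libraries, which may be technical.

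Kupffer cells are the resident macrophages of the liver sinusoids, where they touch blood, sinusoidal endothelial cells, stellate cells and hepatocytes. In obesity and steatosis, monocytes enter the liver and give rise to further macrophages, many of which carry Cx3cr1 and lack TIM4. Cadherins join neighbouring cells, catenins and plakophilins tie cadherins to the cytoskeleton, and focal adhesion kinase relays signals from integrins where cells hold on to matrix. Adhesion to the sinusoid wall is thus part of how a Kupffer cell keeps its place, whereas endocytic adaptors, channels and transporters shape what its membrane takes up and senses.

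The libraries held 25.6 to 38.2 M counts each, so that 3 counts amounted to 0.0785 to 0.117 CPM (counts scaled by library size and, elsewhere in the text, by TMM factors as well). Timd4, the gene of TIM4, averaged 35.7 ± 7.75 CPM in Cx3cr1pos HFD and 1132 ± 469 CPM in HFD KC (SD), and Cx3cr1 averaged 398 ± 71.7 CPM in Cx3cr1pos HFD and 9.7 ± 4.97 CPM in HFD KC. Both genes follow the sort and are no finding. Across all genes, 16 of the 17 libraries were closest to a library of their own group. The exception was HFD KC hfd2, whose nearest library was the Cx3cr1pos HFD library of that name. It had 402 CPM of Timd4, where the other HFD KC libraries had at least 1045 CPM. Values that move most with hfd2 are given with and without it.

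Upstream sequence is shown because the 8 genes share one order of groups in the liver and the bases before a gene's start are where a shared motif would be sought. RefSeq windows on GRCm38.p6 were matched for 5 of the 8 genes, and all 250 bases before the start lay outside the GENCODE gene for 3 of them, Pkp4 at chr2:59160600-59160849 (plus strand), Angptl7 at chr4:148500463-148500712 (minus strand) and Epn2 at chr11:61579688-61579937 (minus strand). For Tmem63a and Slc16a9, 76 and 74 of the bases did. The windows of Pkp4 and Angptl7, which hold matches, read as follows, with matches on either strand in capitals.
Pkp4: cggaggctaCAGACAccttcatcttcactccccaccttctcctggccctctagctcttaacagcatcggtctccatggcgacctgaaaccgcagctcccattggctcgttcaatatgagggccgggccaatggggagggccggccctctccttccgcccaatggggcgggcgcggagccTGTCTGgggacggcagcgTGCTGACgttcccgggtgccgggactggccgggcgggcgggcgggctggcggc
Angptl7: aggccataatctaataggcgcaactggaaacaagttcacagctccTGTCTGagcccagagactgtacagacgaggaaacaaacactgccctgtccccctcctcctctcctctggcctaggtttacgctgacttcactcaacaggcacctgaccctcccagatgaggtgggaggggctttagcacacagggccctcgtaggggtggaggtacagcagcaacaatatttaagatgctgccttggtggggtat

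In both windows the capitals CAGACA or its reverse complement TGTCTG mark the SMAD box, and in Pkp4 the run TGCTGAC marks a short site of the MAF factors. The SMAD box was held by 17.1% of all 32851 windows of 250 bases and the MAF site by 3.81%. No match was found in the windows of the 5 genes to 5 other motifs: GAGGAAGT of PU.1 (held by 2.44% of all windows), AGGTCA, the single repeat of nuclear receptor sites (14%), CGTGGGAA of RBPJ (0.636%), TGACTCA of AP-1 (4.46%) and CACGTG, the E-box (6.02%). No 2 motifs matched overlapping bases. No motif was common to the 5 windows, which says only that these letters are not in these bases.

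In the liver the 8 genes stood in one order, with Cx3cr1pos HFD lowest, HFD KC in the middle and STD KC highest by the mean. Every Cx3cr1pos HFD library was below every Kupffer library for 8 of 8 genes, an arrangement found in 5.84% of all genes and fixed here by the choice of genes. The level left in Cx3cr1pos HFD ranged from 7.85% of the HFD KC mean for Angptl7 to 46.7% for Tmem63a. In these sorted bulk libraries, fewer cells of a type and less RNA per cell cannot be told apart.

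**Figure D1:**
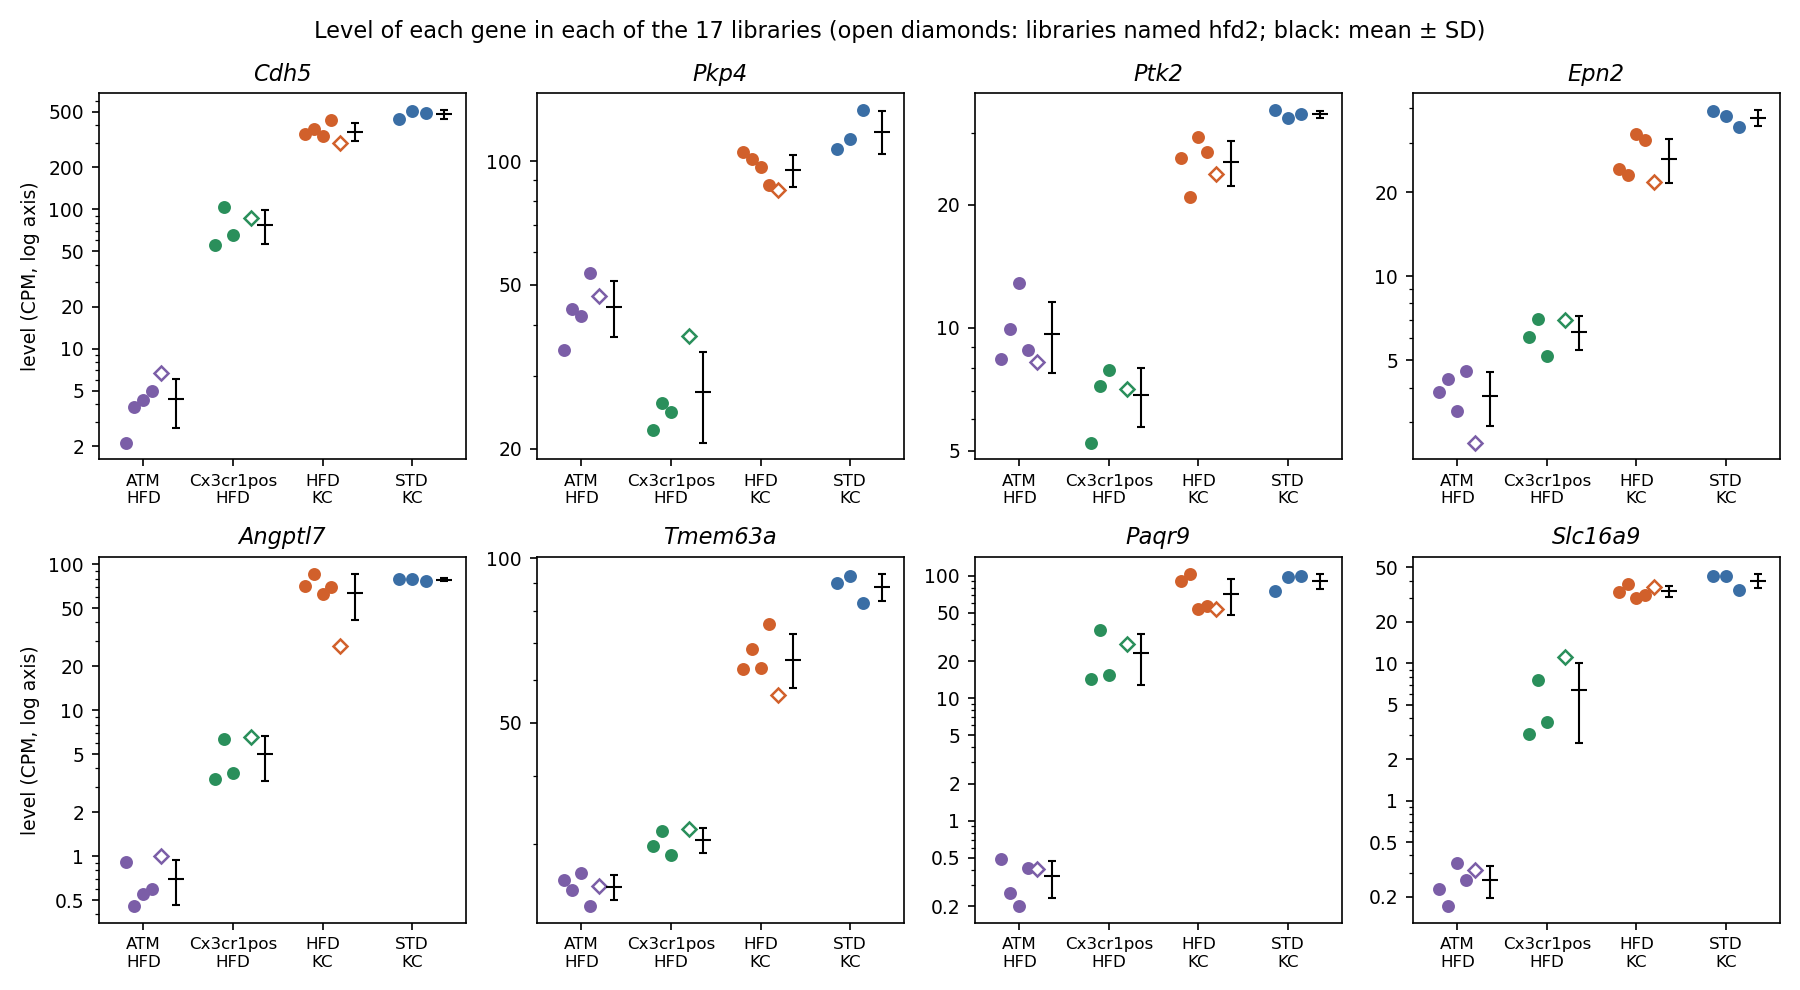
Level of the 8 genes in CPM on a log axis in each of the 17 libraries, by group from ATM HFD at the left to STD KC at the right, with black marks for the mean and SD. Open diamonds are libraries named hfd2. Cx3cr1pos HFD points lie below the points of both Kupffer groups in all 8 panels, and the HFD KC diamond of Angptl7 stands at 27.8 CPM, apart from its group.

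Cdh5 (ENSMUSG00000031871, chromosome 8, 104101625 to 104144511, plus strand, GRCm38) encodes VE-cadherin, the adhesion molecule of endothelial adherens junctions. It had 2.12, 3.79, 4.26, 4.99 and 6.7 CPM in the ATM HFD libraries and 55.3, 65.7, 86.7 and 103 CPM in the Cx3cr1pos HFD libraries. In Kupffer libraries it had 297, 335, 346, 378 and 438 CPM in HFD KC and 440, 491 and 504 CPM in STD KC. The 4 groups did not overlap, and the lowest STD KC value lay just above the highest HFD KC value. The mean in Cx3cr1pos HFD was 21.6% of that in HFD KC (log2 fold change of -2.21 ± 0.24, SE), and the mean in ATM HFD was 1.22% of it (-6.36 ± 0.27). Of the 8 genes Cdh5 had the highest level per length of exon, with 114 CPM per kilobase in STD KC, against 36.5 for Angptl7, the next.

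Because endothelial cells are the best known source of Cdh5, a list of 20 other markers of sinusoidal endothelial cells is set beside it. Their summed level was 140 to 202 CPM in ATM HFD, 792 to 1012 CPM in Cx3cr1pos HFD, 1070 to 4176 CPM in HFD KC and 2825 to 4480 CPM in STD KC, and none of the 20 was at 0 in any group. Against HFD KC, 13 of the 20 were lower in Cx3cr1pos HFD and none was higher, with 5.85% of all genes called higher and 7.48% called lower in that comparison. Stab2, a scavenger receptor, averaged 173 ± 66.0 CPM in Cx3cr1pos HFD and 531 ± 108 CPM in HFD KC (log2 fold change of -1.62 ± 0.24, SE, adjusted p = 0.00019). Within HFD KC the marker sum was 1129, 1070, 4107, 4176 and 2032 CPM in hf1, hf2, hf3, hfd1 and hfd2, where Cdh5 was 346, 378, 335, 438 and 297 CPM in the same order. Both were highest in hfd1, while the lowest sum belonged to hf2 and the lowest Cdh5 to hfd2. Cdh5 amounted to 0.0152 to 0.0362 of the marker sum in ATM HFD, 0.0698 to 0.108 of it in Cx3cr1pos HFD, 0.0817 to 0.353 of it in HFD KC and 0.113 to 0.174 of it in STD KC. Hepatocyte genes summed to 206 to 365 CPM in Cx3cr1pos HFD and 322 to 883 CPM in HFD KC, with 11 of 20 lower. Whether RNA of these cells contributes to the group difference in Cdh5 was not tested.

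Pkp4 (ENSMUSG00000026991, chromosome 2, 59160850 to 59355208, plus strand, GRCm38) encodes plakophilin 4, an armadillo-repeat protein that binds cadherin tails. It had 34.8 to 53.4 CPM (median 43.6) in ATM HFD, 22.2 to 37.5 CPM in Cx3cr1pos HFD, 84.9 to 105 CPM (median 96.9) in HFD KC and 107 to 133 CPM in STD KC. The adipose and the Cx3cr1-positive libraries overlapped, and both lay below all Kupffer libraries. Within HFD KC, Pkp4 was 84.9 to 87.6 CPM in the frac_neg libraries and 96.9 to 105 CPM in the CD68 libraries, while all STD KC libraries carry frac_neg. The share of the HFD KC mean was 46.5% in ATM HFD and 29.0% in Cx3cr1pos HFD, with a log2 fold change of -1.79 ± 0.15 (SE) for Cx3cr1pos HFD.

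Ptk2 (ENSMUSG00000022607, chromosome 15, 73205102 to 73423280, minus strand, GRCm38) encodes focal adhesion kinase, the integrin-linked tyrosine kinase. It had 8.24, 8.4, 8.81, 9.95 and 12.9 CPM in ATM HFD and 5.24, 7.08, 7.22 and 7.87 CPM in Cx3cr1pos HFD. In Kupffer cells it had 20.9, 23.8, 26, 26.9 and 29.3 CPM in HFD KC and 32.6, 33.3 and 34.1 CPM in STD KC. Cx3cr1pos HFD was thus the lowest of the groups and no groups overlapped, which for ATM HFD above Cx3cr1pos HFD was the case in 15.5% of all genes. Ptk2 was the only one of the 8 genes with every ATM HFD library above every Cx3cr1pos HFD library (log2 fold change 0.50 ± 0.15, SE). Within HFD KC, Ptk2 was 29.3 and 26.9 CPM in hf3 and hfd1, the libraries with endothelial sums of 4107 and 4176 CPM. It was 26, 23.8 and 20.9 CPM in hf1, hfd2 and hf2. The part of endothelial RNA in the level of Ptk2 was not tested. Its close relative Ptk2b, the kinase PYK2 of blood cells, differed from Ptk2 in Cx3cr1pos HFD, where its mean was the highest of the groups. Ptk2b averaged 80.5 ± 7.61 CPM in ATM HFD, 188 ± 17.4 CPM in Cx3cr1pos HFD, 141 ± 24.0 CPM in HFD KC and 135 ± 7.57 CPM in STD KC. Ptk2b was higher in Cx3cr1pos HFD than in HFD KC (log2 fold change 0.41 ± 0.12, SE, adjusted p = 0.026) and lower in ATM HFD than in Cx3cr1pos HFD (-1.22 ± 0.12, adjusted p = 3.5e-07). Both kinases had lower means in ATM HFD than in HFD KC, for Ptk2b by a log2 fold change of -0.81 ± 0.11 (adjusted p = 1.1e-05).

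Epn2 (ENSMUSG00000001036, chromosome 11, 61517249 to 61579687, minus strand, GRCm38) encodes epsin 2, an adaptor that bends membrane at clathrin-coated pits. It had 2.54 to 4.58 CPM (median 3.86) in ATM HFD, 5.19 to 7.06 CPM in Cx3cr1pos HFD, 21.8 to 32.2 CPM (median 24.3) in HFD KC and 34.3 to 39.1 CPM in STD KC. No groups overlapped, and the mean was 14.1% of the HFD KC mean in ATM HFD and 24.0% in Cx3cr1pos HFD (log2 fold change of -2.06 ± 0.18, SE). Within HFD KC, Epn2 was 32.2 and 30.7 CPM in hf3 and hfd1, the libraries with endothelial sums of 4107 and 4176 CPM, and 24.3, 23.0 and 21.8 CPM in the other 3. The part of endothelial RNA in the level of Epn2 was not tested.

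Angptl7 (ENSMUSG00000028989, chromosome 4, 148495183 to 148500460, minus strand, GRCm38) encodes a secreted angiopoietin-like protein, known best from the human eye. It had 0.456, 0.552, 0.6, 0.915 and 1.0 CPM in ATM HFD and 3.37, 3.7, 6.35 and 6.59 CPM in Cx3cr1pos HFD. Kupffer levels were 27.8, 62.4, 70.5, 71.6 and 86.4 CPM in HFD KC and 77.0, 79.1 and 80.0 CPM in STD KC. Cx3cr1pos HFD was far below both Kupffer groups, which overlapped. The log2 fold change was -3.67 ± 0.31 (SE) for Cx3cr1pos HFD against HFD KC and -6.50 ± 0.34 for ATM HFD against HFD KC. The low HFD KC value belongs to hfd2, and without it the HFD KC mean was 72.7 CPM (62.4 to 86.4, n = 4), and it was 63.7 CPM with it (n = 5). The share left in Cx3cr1pos HFD was 6.88% without HFD KC hfd2.

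Tmem63a (ENSMUSG00000026519, chromosome 1, 180942344 to 180975112, plus strand, GRCm38) encodes a mechanically gated cation channel. It had 23.1, 24.7, 25.1, 25.8 and 26.6 CPM in ATM HFD and 28.6, 29.7, 31.7 and 32.0 CPM in Cx3cr1pos HFD. Kupffer libraries had 56.2, 62.7, 62.9, 68.2 and 75.9 CPM in HFD KC and 82.9, 90.0 and 92.8 CPM in STD KC. The groups formed 4 separate steps, with an SD of 5.25% of the mean in ATM HFD, 5.27% in Cx3cr1pos HFD, 11.3% in HFD KC and 5.78% in STD KC. The step down was the smallest of the 8 genes in Cx3cr1pos HFD, with a log2 fold change of -1.10 ± 0.09 (SE) against HFD KC. An antisense gene shares 157 exonic bases with Tmem63a and had 8 counts over all libraries, against 27949 for Tmem63a.

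Paqr9 (ENSMUSG00000064225, chromosome 9, 95559657 to 95568023, plus strand, GRCm38) encodes a membrane receptor of the progestin and adipoQ receptor family. It had 0.201, 0.257, 0.407, 0.413 and 0.49 CPM in ATM HFD and 14.4, 15.4, 27.6 and 36 CPM in Cx3cr1pos HFD. In Kupffer cells it had 53.1, 53.7, 56.1, 90.5 and 103 CPM in HFD KC and 75.4, 97.4 and 99.3 CPM in STD KC. HFD KC fell into a pair of high libraries, hf1 and hf2, and 3 lower ones, while the counts in ATM HFD (8 to 15 per library) were few but above 0. Relative to the HFD KC mean, the level was 0.496% in ATM HFD, the lowest such share among the 8 genes, and 32.8% in Cx3cr1pos HFD (log2 fold change of -1.61 ± 0.28, SE). The high libraries hf1 and hf2 were also the ones with the lowest endothelial sums, 1129 and 1070 CPM.

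Slc16a9 (ENSMUSG00000037762, chromosome 10, 70245100 to 70285968, plus strand, GRCm38) encodes a transporter of the monocarboxylate transporter family, described in human cells as a carnitine carrier. It had 0.171, 0.229, 0.263, 0.313 and 0.351 CPM in ATM HFD and 3.06, 3.73, 7.62 and 11.1 CPM in Cx3cr1pos HFD. Kupffer libraries had 29.7, 31.3, 32.8, 35.6 and 37.8 CPM in HFD KC and 34.4, 42.8 and 42.9 CPM in STD KC. The Kupffer groups overlapped, and the spread was widest in Cx3cr1pos HFD, with an SD of 58.7% of the mean. The mean was 19.1% of the HFD KC mean in Cx3cr1pos HFD (log2 fold change of -2.38 ± 0.29, SE) and 0.794% in ATM HFD. A pseudogene and an antisense gene overlap Slc16a9 on the opposite strand and had 15 and 0 counts over all libraries, against 10580.

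Adipose macrophages split the 8 genes into distinct patterns. Cdh5, Angptl7, Paqr9 and Slc16a9 stood at 0.496 to 1.22% of the HFD KC mean in ATM HFD, whereas Ptk2, Pkp4 and Tmem63a stood at 38.1 to 46.5% and Epn2 at 14.1%. Every ATM HFD library was below every Kupffer library for 8 of 8 genes, as for 16.0% of all genes and for 69.3% of the 893 genes whose Cx3cr1pos HFD libraries were all below the Kupffer libraries. Every ATM HFD library was below every Cx3cr1pos HFD library for 6 of the 8, as for 34.0% of those 893 genes and 16.2% of all genes. Ptk2 and Pkp4 are the exceptions. These comparisons share the Kupffer or the Cx3cr1pos HFD libraries with the choice of genes and carry no test.

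**Figure D2:**
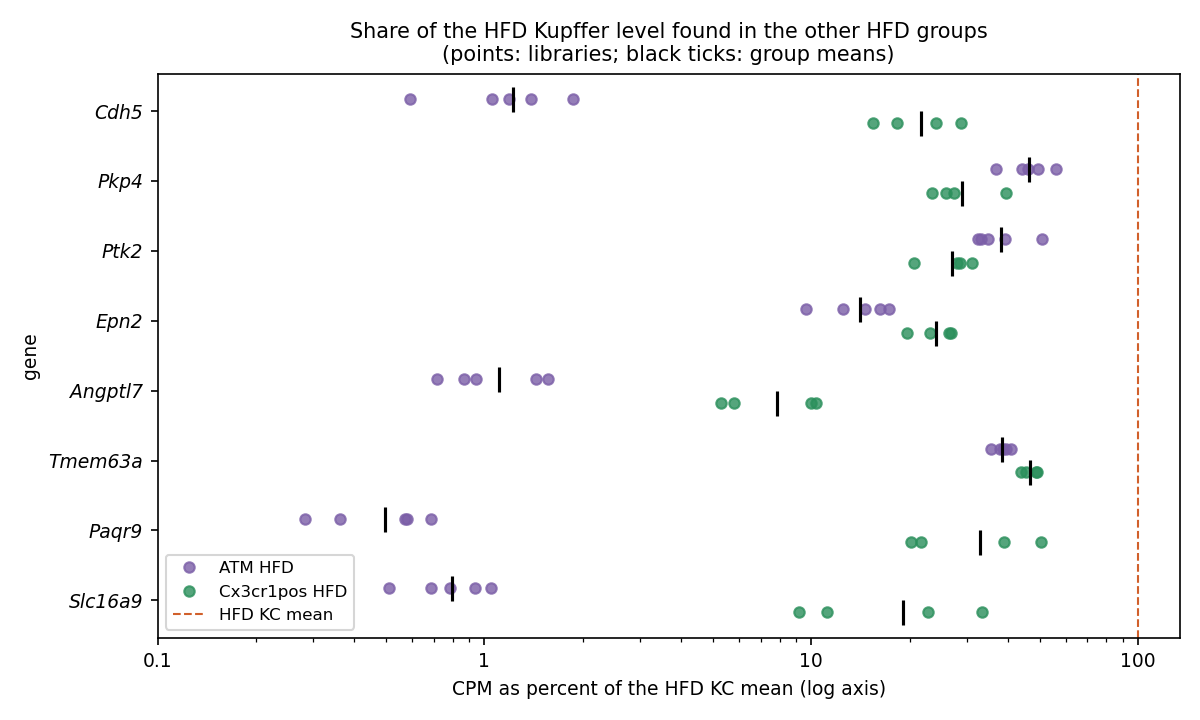
CPM of each ATM HFD library (purple) and each Cx3cr1pos HFD library (green) as a percent of the HFD KC mean of the same gene, on a log axis, with black ticks for group means and a dashed line at the HFD KC mean. Cdh5, Angptl7, Paqr9 and Slc16a9 have ATM HFD means of 0.496 to 1.22%, while those of Ptk2, Pkp4 and Tmem63a are 38.1 to 46.5%.

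The Cx3cr1pos HFD libraries differed among themselves in a way shared by most of the 8 genes. Libraries hf2 and hfd2 both exceeded hf1 and hf3 for 7 of the 8, an arrangement seen in 23.9% of all genes, with Ptk2 as the exception. The summed level of 20 Kupffer cell identity genes was also higher in hf2 and hfd2 (27142 and 25549 CPM) than in hf1 and hf3 (12745 and 13764 CPM), whereas Timd4 was 26.3 and 41.1 CPM in the first pair and 32.5 and 42.9 CPM in the second. The part of this variation in the level of the genes was not tested. In each of the 4 libraries the 8 genes were below the HFD KC library of the same name. The level in Cx3cr1pos HFD was 16.0 to 29.1% of that in the HFD KC library of the same name for Cdh5, 4.7 to 23.7% for Angptl7 and 45.5 to 56.9% for Tmem63a. The upper limits belong to the hfd2 pair, and without it the ranges were 16.0 to 27.2% for Cdh5, 4.7 to 7.35% for Angptl7 and 45.5 to 47.3% for Tmem63a.

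HFD KC hfd2 was the lowest HFD KC library for 6 of the 8 genes, as for 19.2% of all genes, with Ptk2 and Slc16a9 as exceptions. Slc16a9 was the second highest there, at 35.6 CPM. Leaving out hfd2 from HFD KC alone moved the share left in Cx3cr1pos HFD little: it was 20.7% for Cdh5 (21.6% with it), 22.9% for Epn2 (24.0%), 30.8% for Paqr9 (32.8%) and 19.4% for Slc16a9 (19.1%). Leaving out hfd2 from both groups moved some shares more. They were then 19.9% for Cdh5, 22.2% for Epn2, 29.0% for Paqr9, 14.6% for Slc16a9 and 24.8% for Pkp4 (29.0% with all libraries).

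Diet within the Kupffer gate is the comparison that did not choose the genes, although both of its groups entered the choice. It asks whether these transcripts differ between the diets in cells of one gate. Of the 8 genes, 1 fell in HFD KC relative to STD KC, none rose and 7 did not pass the test, where 3.4% of all genes passed it in either direction (2.27% higher and 1.13% lower). Tmem63a was that gene, at 65.2 ± 7.36 CPM in HFD KC (SD, n = 5) and 88.6 ± 5.12 CPM in STD KC (n = 3), a log2 fold change of -0.44 ± 0.095 (SE, adjusted p = 0.016 by the quasi-likelihood test of edgeR). It was lower in 5 of 5 HFD KC libraries than in any STD KC library. The call did not hold without any one of the STD KC libraries, with HFD KC and STD KC fitted alone, or with the frac_neg libraries as the only HFD KC libraries (adjusted p between 0.052 and 0.13).

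**Figure D3:**
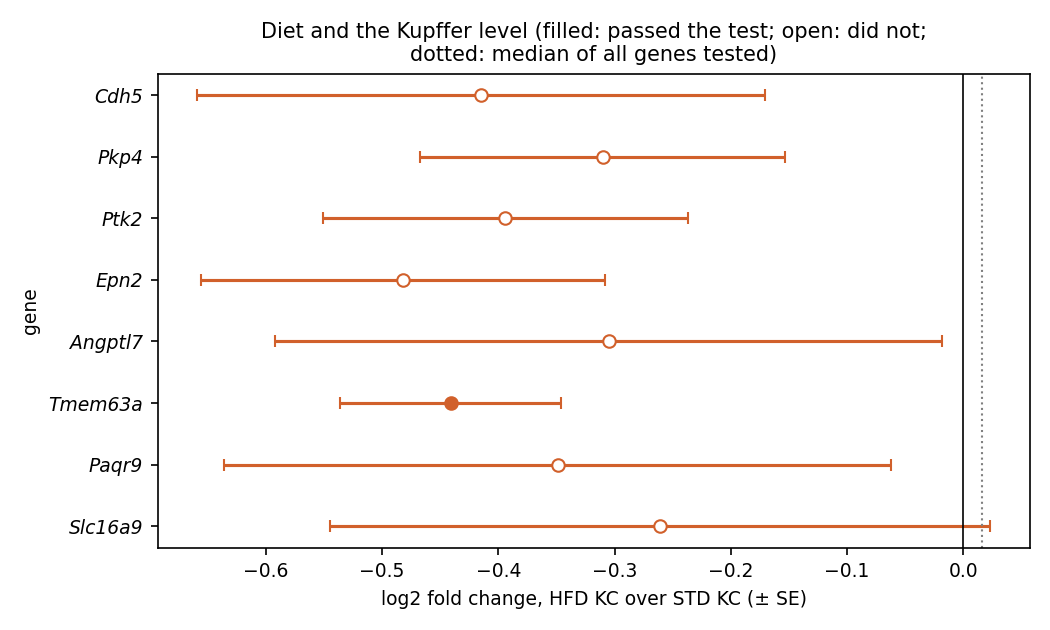
Log2 fold change of each gene in HFD KC over STD KC, with bars for the SE, a filled point where the test was passed and open points where it was not. The dotted grey line is the median of all genes tested. All 8 points lie below 0, from -0.26 for Slc16a9 to -0.48 for Epn2, and Tmem63a alone is filled.

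The 8 estimates lay between -0.48 (Epn2) and -0.26 (Slc16a9) with a median of -0.37, beside a median of 0.02 over all genes tested. They were below 0 for 8 of 8 genes, as for 47.6% of all genes. Over the 8 Kupffer libraries of both diets, pairwise Pearson r between the 8 genes was 0.104 to 0.953 (median 0.601). A difference between the diets that the genes share raises these r values by itself. The 8 signs cannot be taken as independent of each other. Both Kupffer groups entered the choice of the genes, and the shares of all genes given here were not taken over genes chosen that way. Without HFD KC hfd2 the estimates lay between -0.43 (Epn2) and -0.12 (Angptl7, with an adjusted p of 0.86), and Tmem63a stood at -0.40 with an adjusted p of 0.039. Adjusted p was 0.15 for Epn2, 0.19 for Ptk2, 0.33 for Pkp4, 0.42 for Cdh5, 0.6 for Paqr9, 0.65 for Angptl7 and 0.71 for Slc16a9, so these differences did not pass. In simulated counts this comparison recovered 14% of genes changed 1.5-fold, and the estimates of the 8 genes were smaller, from 1.2-fold (Slc16a9) to 1.4-fold (Epn2). Not passing therefore does not show that a gene is unchanged. Every HFD KC library was below every STD KC library for 5 of the 8 genes (Cdh5, Ptk2, Pkp4, Epn2 and Tmem63a), as for 6.58% of all genes, and the groups overlapped for Angptl7, Paqr9 and Slc16a9. Cdh5 averaged 359 ± 52.7 CPM in HFD KC and 479 ± 33.7 CPM in STD KC, and Epn2 averaged 26.4 ± 4.73 CPM in HFD KC and 36.9 ± 2.45 CPM in STD KC.

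Marker levels are set beside the diet estimates. None of the 20 endothelial markers was called between HFD KC and STD KC, while their summed level ranged from 1070 to 4176 CPM in HFD KC and from 2825 to 4480 CPM in STD KC. Of 10 genes of monocyte-derived macrophages, 6 were higher in HFD KC and none lower, and their sum was 427 to 2422 CPM in HFD KC and 128 to 230 CPM in STD KC. The 20 Kupffer identity genes summed to 51953 to 75972 CPM in HFD KC and 73939 to 74279 CPM in STD KC, with none called. Genes of B and plasma cells (3 of 9 tested), of T and NK cells (2 higher and 1 lower of 12), of adipocytes (1 of 6) and of hepatocytes (1 higher and 1 lower of 20) passed as well, and none of stellate cells and fibroblasts (15), cholangiocytes (3), neutrophils (6) or the erythroid and platelet list (8) did. The part of these in the diet estimates of the 8 genes was not tested.

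**Figure D4:**
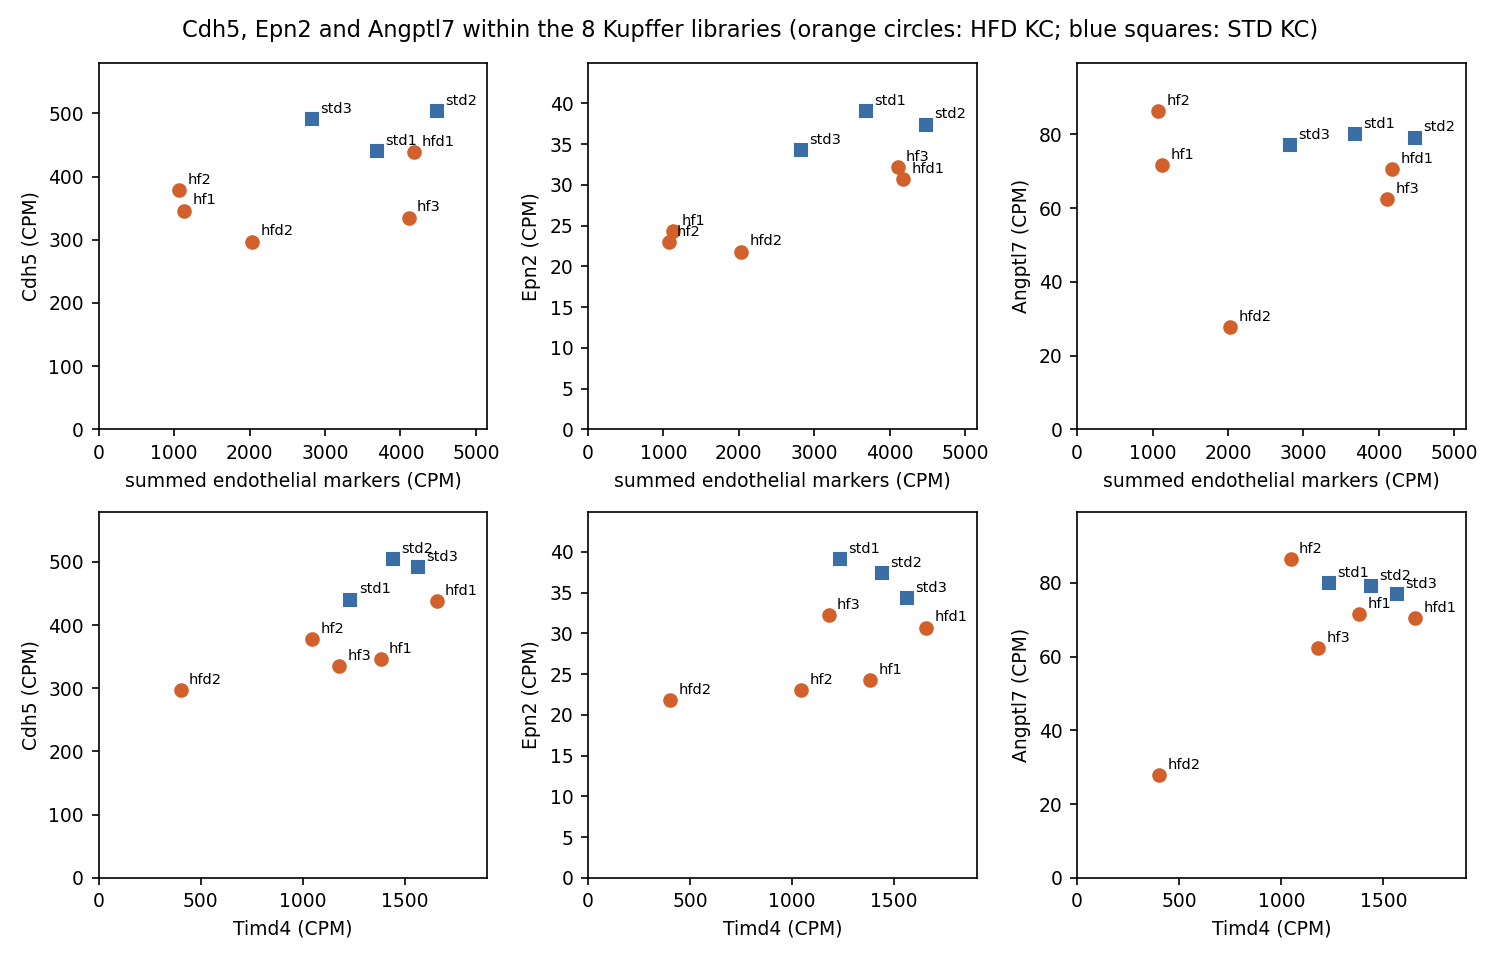
Level of Cdh5, Epn2 and Angptl7 (CPM, vertical axes) in the 5 HFD KC libraries (orange circles) and the 3 STD KC libraries (blue squares), against the summed level of 20 endothelial markers (upper row) and against Timd4 (lower row). Cdh5 is 438 CPM in hfd1, where the marker sum of HFD KC is highest, and 378 CPM in hf2, where it is lowest, and Angptl7 and Timd4 are both lowest in hfd2, at 27.8 and 402 CPM.

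Relatives and partners of the 8 genes were taken from 7 lists of 127 genes, 106 of which passed the filter on low counts. Between Cx3cr1pos HFD and HFD KC, 17 of the 106 were lower and 7 higher, or 22.6%, beside 13.3% of all genes. The median log2 fold change was -0.11 over the 106 and 0.002 over all genes tested. The corresponding share for HFD KC against STD KC was 7.55%, with 7 higher and 1 lower, beside 3.4% of all genes (2.27% higher and 1.13% lower). The share of the relatives and partners was 33.0% for Cx3cr1pos HFD against STD KC, beside 24.1% of all genes, and 56.6% for ATM HFD against HFD KC, beside 49.0%.

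Some partners at cadherin junctions were lower along with Cdh5 and Pkp4. Of 16 tested genes of the cadherin-catenin list, 5 were lower in Cx3cr1pos HFD than in HFD KC and none higher, with a list median of -0.71. Over all genes, 7.48% were called lower in that comparison. Ptprm, a receptor phosphatase that joins cells by homophilic binding, averaged 13 ± 2.29 CPM in Cx3cr1pos HFD and 55.9 ± 22.4 CPM in HFD KC (log2 fold change of -2.10 ± 0.27, SE, adjusted p = 6.1e-05). Ctnna1, the alpha-catenin that links cadherins to actin, averaged 254 ± 59.5 CPM in Cx3cr1pos HFD and 413 ± 62.2 CPM in HFD KC (-0.70 ± 0.16, adjusted p = 0.0058). Ctnnd1, a catenin that binds the cadherin tail, Nectin2, an adhesion molecule, and Jup, plakoglobin, were the others lower than in HFD KC, and Jup was chosen after its values were seen. Against STD KC the list moved in both directions. There Jup, Ptprm, Ctnnd1, Ctnna1 and Afdn were lower in Cx3cr1pos HFD, whereas Ctnnb1, Nectin1 and Pkp3 were higher. Afdn, Ctnnb1 and Nectin1 were also chosen after their values were seen. Pkp3, a plakophilin like Pkp4, was the one gene of the list called with diet and was higher, at 2.53 ± 1.93 CPM in HFD KC and 0.446 ± 0.167 CPM in STD KC (log2 fold change 2.50 ± 0.54, SE, adjusted p = 0.016).

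Partners of focal adhesion kinase moved in both directions. Of 28 tested, 4 were higher in Cx3cr1pos HFD than in HFD KC (Lims1, Lpxn, Git2 and Ptk2b) and 3 lower (Nck1, Src and Fermt2, the last chosen after its values were seen), with a list median of 0.02. Over all genes, 5.85% were called higher and 7.48% lower in that comparison. Nck1, an adaptor between kinases and actin, averaged 35.9 ± 8.02 CPM in Cx3cr1pos HFD and 94.4 ± 21.0 CPM in HFD KC (log2 fold change of -1.40 ± 0.18, SE, adjusted p = 6.4e-05). Lpxn, leupaxin, a paxillin relative of blood cells that binds the kinases of this family, averaged 224 ± 15.2 CPM in Cx3cr1pos HFD and 181 ± 12.6 CPM in HFD KC (0.31 ± 0.087, adjusted p = 0.028). None of the 28 passed between HFD KC and STD KC. In ATM HFD, 8 were lower than in Cx3cr1pos HFD and 4 higher, beside 20.8% of all genes called lower and 18.9% called higher. Parvg, gamma-parvin, averaged 9.8 ± 2.77 CPM in ATM HFD and 198 ± 17.9 CPM in Cx3cr1pos HFD (-4.34 ± 0.23, adjusted p = 4.7e-10).

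Of 26 tested genes of the clathrin machinery around Epn2, 1 was lower in Cx3cr1pos HFD than in HFD KC and none higher, beside 13.3% of all genes called in either direction, and the list median was -0.07. That gene was Itsn1, intersectin, a scaffold of the coated pit, at 69.7 ± 9.23 CPM in Cx3cr1pos HFD and 121 ± 28.3 CPM in HFD KC (log2 fold change of -0.80 ± 0.18, SE, adjusted p = 0.0062). The paralog Epn1, which lies outside the naming rule and was chosen after its values were seen, averaged 24.2 ± 7.78 CPM in Cx3cr1pos HFD and 23.4 ± 4.01 CPM in HFD KC (0.05 ± 0.21, adjusted p = 0.92). At 15.4 ± 4.1 CPM in ATM HFD, Epn1 was lower there than in HFD KC (-0.60 ± 0.20, adjusted p = 0.021) and than in Cx3cr1pos HFD (-0.65 ± 0.21, adjusted p = 0.023). In ATM HFD against Cx3cr1pos HFD, 12 of the 26 were higher and 2 lower, beside 18.9% of all genes called higher, 20.8% called lower and 39.7% called in either direction. Dab2, an adaptor for lipoprotein receptors, averaged 1914 ± 1444 CPM in ATM HFD and 314 ± 124 CPM in Cx3cr1pos HFD (2.61 ± 0.40, adjusted p = 7.6e-05).

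Among 7 tested relatives of Angptl7, 1 was lower in Cx3cr1pos HFD than in HFD KC, beside 13.3% of all genes called in either direction. That gene was Angpt2, a ligand of the endothelial receptor TIE2, at 11.1 ± 3.59 CPM in Cx3cr1pos HFD and 33.3 ± 19.9 CPM in HFD KC (log2 fold change of -1.59 ± 0.49, SE, adjusted p = 0.041). The call of Angpt2 was kept in 16 of 25 alternatives. Angptl4, an inhibitor of lipoprotein lipase, rose with diet, to 27.7 ± 9.82 CPM in HFD KC, against 6.45 ± 1.28 CPM in STD KC (2.10 ± 0.26, adjusted p = 0.00036), and was 177 ± 39.4 CPM in ATM HFD and 42.5 ± 2.64 CPM in Cx3cr1pos HFD. Angptl7 and Angptl4 therefore lay at opposite ends, Angptl7 lowest and Angptl4 highest in ATM HFD by the mean.

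Several genes listed with Tmem63a under families of mechanically gated channels were lower in Cx3cr1pos HFD too. The list goes by family, and the gating of each member was not tested. Of 9 tested, 5 were lower than in HFD KC (Tmc3, Tmc7, Trpv4, Tmem63b and Tmc8) and none higher, with a median of -0.67, beside 7.48% of all genes called lower. Against STD KC, Tmc3, Tmc7, Trpv4 and Tmem63b were lower in Cx3cr1pos HFD and Piezo1 was higher (log2 fold change 0.80 ± 0.24, SE, adjusted p = 0.021). Piezo1 was chosen after its values were seen. Tmem63b, the paralog, averaged 4.19 ± 0.571 CPM in Cx3cr1pos HFD and 7.39 ± 1.05 CPM in HFD KC (log2 fold change of -0.82 ± 0.19, SE, adjusted p = 0.0082). Trpv4, a calcium channel opened by swelling and warmth, averaged 11.7 ± 3.16 CPM in Cx3cr1pos HFD, 24.2 ± 5.24 CPM in HFD KC and 45.9 ± 4.83 CPM in STD KC. It fell with diet in the Kupffer gate (-0.93 ± 0.24, adjusted p = 0.038), a call kept in 17 of 25 alternatives and lost without HFD KC hfd2 (adjusted p = 0.064), and was lower again in Cx3cr1pos HFD than in HFD KC (-1.05 ± 0.23, adjusted p = 0.0051). Tmc3, of the transmembrane channel-like family, averaged 8.78 ± 5.68 CPM in Cx3cr1pos HFD, 135 ± 59.5 CPM in HFD KC and 23.4 ± 9.65 CPM in STD KC, so that it rose with diet in the Kupffer gate (2.53 ± 0.45, adjusted p = 0.0049).

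Of 8 tested relatives of Paqr9, 1 was higher in Cx3cr1pos HFD than in HFD KC and none lower, beside 13.3% of all genes called in either direction, and the list median was -0.11. That gene was Paqr7, a membrane progestin receptor, at 58.8 ± 9.9 CPM in Cx3cr1pos HFD and 40.4 ± 5.78 CPM in HFD KC (log2 fold change 0.54 ± 0.13, SE, adjusted p = 0.0092). In ATM HFD, Paqr7 averaged 91.7 ± 10.3 CPM, against 58.8 ± 9.9 CPM in Cx3cr1pos HFD (0.64 ± 0.13, adjusted p = 0.00086), while Paqr9 stood at 0.353 ± 0.12 CPM there.

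Monocarboxylate transporters of the family of Slc16a9 moved in both directions. Of 13 tested genes, 2 were higher in Cx3cr1pos HFD than in HFD KC (Emb and Slc16a1) and 2 lower (Slc16a5 and Slc16a12), with a median of -0.002. Over all genes, 5.85% were called higher and 7.48% lower. The call of Slc16a12 was kept in 16 of 24 alternatives and lost with same-named libraries as pairs (adjusted p = 0.11). Slc16a1, a lactate transporter, averaged 13.3 ± 3.64 CPM in Cx3cr1pos HFD and 4.04 ± 1.47 CPM in HFD KC (log2 fold change 1.71 ± 0.28, SE, adjusted p = 0.0005), and Emb, embigin, a chaperone of such transporters, averaged 52.2 ± 18.1 CPM and 4.42 ± 2.73 CPM in the same groups (3.56 ± 0.39, adjusted p = 1.6e-05). Slc16a1, Emb and Slc16a3, the lactate exporter, also rose with diet in the Kupffer gate, Slc16a3 to 10.8 ± 3.16 CPM in HFD KC, against 4.03 ± 0.673 CPM in STD KC (1.42 ± 0.26, adjusted p = 0.0061). Slc16a5 averaged 0.502 ± 0.148 CPM in Cx3cr1pos HFD and 1.91 ± 0.161 CPM in HFD KC (-1.92 ± 0.35, adjusted p = 0.0015).

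**Figure D5:**
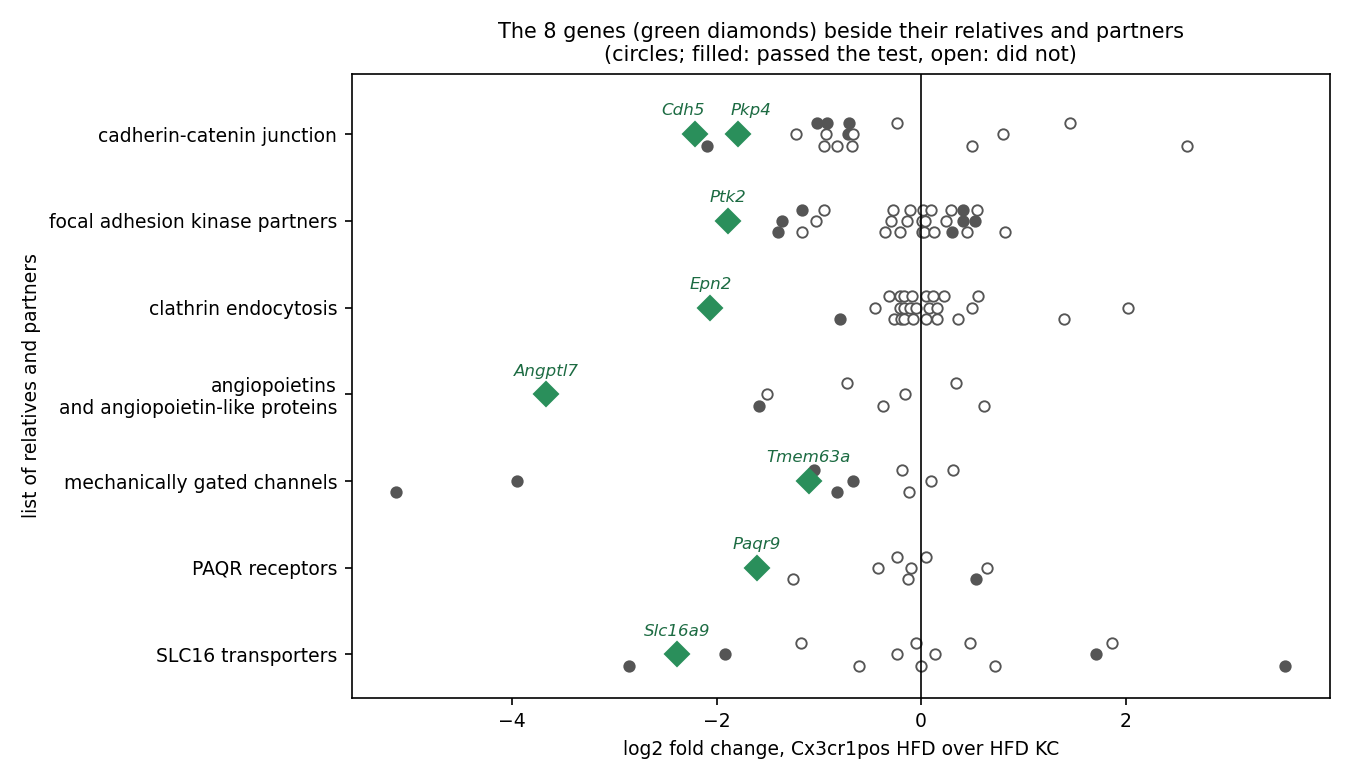
Log2 fold change of Cx3cr1pos HFD over HFD KC for the 8 genes (green diamonds) and the tested genes of the 7 lists of relatives and partners (circles, filled where the test was passed). Epn2 lies at -2.06 beside a list median of -0.07, whereas 5 of 9 tested genes listed as mechanically gated channels are lower along with Tmem63a.

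The genes whose pattern was most like the mean of the 8 (mean z-score of log2 CPM over the 17 libraries) included the sort gene Timd4 and, with C6 and Pcolce2, 3 of the Kupffer identity genes. By Pearson r the 10 highest included C6, a complement component (0.993), Slc22a17 (0.992), Timd4 (0.991), Fam84a (0.99), Pcolce2 (0.99), Mpzl1 (0.986), Fcna, ficolin A (0.985), C2, a complement component (0.985), and Icos (0.984). The libraries share their groups, so that r over 17 libraries describes group levels in the main. The 8 genes were chosen by a difference between the TIM4 gate and Cx3cr1pos HFD, so likeness to Timd4 is no finding. Over the 8 Kupffer libraries r was lower, at 0.686 for Timd4, and lay between 0.549 (Mpzl1) and 0.947 (Fcna) for the 10 genes. Over the 12 liver libraries, 4 of the 10 genes were again among the 10 most alike. C6 averaged 46.0 CPM in Cx3cr1pos HFD and 1159 CPM in HFD KC, and Fcna averaged 225 CPM in Cx3cr1pos HFD and 1613 CPM in HFD KC.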

How the data were processed

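RNA was measured in 17 libraries. Per the labels' protocols and the submitters' processing notes, total RNA was prepared with a SMARTer kit, read single-end on an Illumina HiSeq instrument, split by sample with bcl2fastq and aligned by STAR 2.0.4b. The deposited counts per gene were made with Subread featureCounts 1.4.5. The build, annotation and strand setting are not given in the sources used here, so coordinates and exon lengths come from GENCODE M21 on GRCm38. Of 40824 entries, 276 were repeats and were dropped, which left 40548 genes. Reads are not counted as molecules, so 3 counts as a floor covers counting error only.

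The counts were filtered with filterByExpr (15285 genes kept), scaled with TMM factors (0.937 to 1.14) and fitted with 1 coefficient per group over all libraries, with edgeR 4.0.16 (R 4.3.3). Two-sided quasi-likelihood F-tests were adjusted over all genes (Benjamini-Hochberg, threshold 0.05), and the SE is the log2 fold change over the root of F. The fit was tested on simulated data. The 8 genes were tested for HFD KC against STD KC alone. The genes and the lists (7 of relatives, 11 of markers) were chosen with earlier results of these data known. Named relatives are, per list, up to 4 with the smallest adjusted p in Cx3cr1pos HFD against HFD KC and up to 2 in each other comparison. Jup, Fermt2, Epn1, Afdn, Ctnnb1, Nectin1 and Piezo1 were added later, with their values in view. Alternatives were DESeq2 1.42.0, RLE factors, total counts, no filter, the compared groups alone, a replicate block, subsets by sort label and leaving out each library. Same-named libraries of Cx3cr1pos HFD and HFD KC deviated together from their group means (correlation across genes 0.166 to 0.301 in 4 pairs). Differently named libraries of these groups had -0.24 to 0.16, so the gap is narrow. Those same names were taken as pairs in the replicate block, and the main fit did not use them. Of the 10 genes most like the 8 in pattern, 1 is not reported here.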

Additional observations from a re-analysis of the deposited data

How the results depend on the processing

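All 8 genes had a negative estimate for HFD KC against STD KC in all 25 alternatives, and 7 of them passed in none. Tmem63a passed in 20 of 25 (adjusted p between 0.00087 and 0.13). The count of the 8 genes called was 0 with HFD KC and STD KC fitted alone and 0 with the frac_neg HFD KC libraries alone, and ranged from 0 to 1 with a library left out (0 without std1, std2 or std3). Of the relatives and partners, 8 were called for HFD KC against STD KC, 5 with the CD68 HFD KC libraries alone and 2 to 9 with a library left out (4 without std1, 2 without std2, 2 without std3). For Cx3cr1pos HFD against HFD KC, 24 were called, 15 with the frac_neg HFD KC libraries alone and 16 to 28 with a library left out. For Cx3cr1pos HFD against STD KC, 35 were called and 23 to 39 with a library left out (23 without std2, where the calls over all genes were 2225, against 3677 with it). Of the 10 genes most like the mean of the 8, 4 remained over the 12 liver libraries and 5 without HFD KC hfd2 as well. Leaving out libraries also lowers their number, and the cause of these changes was not tested.

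With a replicate block on the library names, 23 relatives and partners were called for Cx3cr1pos HFD against HFD KC, and of the named ones Slc16a12 lost its call (adjusted p = 0.11). For ATM HFD against HFD KC the block gave 66 calls, against 60 without it. There same-named libraries had correlations of -0.02 to 0.186 and differently named ones -0.164 to 0.131, so the names were not taken as pairs. Between HFD KC and STD KC the final digit of the names did not pair the libraries (-0.135 to 0.027), and the block left the count of the 8 genes at 1 and that of the relatives and partners at 8.

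Over all genes, 519 passed for HFD KC against STD KC, 1156 by DESeq2 and 231 with those groups alone, and 125 to 596 with a library left out. The estimates of the 8 genes kept their sign in all comparisons and alternatives, but their size moved: for HFD KC against STD KC, Paqr9 ranged from -0.73 to -0.16 and Angptl7 from -0.68 to -0.11, in both with the frac_neg HFD KC libraries alone at one end and the CD68 ones alone at the other. Slc16a9 in Cx3cr1pos HFD against HFD KC ranged from -2.81 to -2.16, and Tmem63a in ATM HFD against Cx3cr1pos HFD from -0.31 to -0.18. No scaling moved the median of all genes by more than 0.0973 on the log2 scale. Depth limits the ATM HFD levels of Paqr9 and Slc16a9 most, with 6 to 15 counts per library.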
